A study of Mus musculus with 6 samples.

Results

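The genes of glucose breakdown and of the response to low oxygen were examined in macrophages from healing mouse skin wounds. The group holds 41 genes chosen by name for their place in these pathways, and all 41 were found among the 15168 genes of the count table by their gene symbol. There were 25 genes of glycolysis and lactate handling, and 16 genes that regulate hypoxia-inducible factor (HIF) or answer to it. The 2 sets are described separately. The counts allowed a test between ages for 40 of the 41. Epas1, the remaining gene, had between 0 and 5 counts a sample.

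The study compared macrophages sorted from full-thickness wounds on the back of wild-type female C57BL/6J mice, harvested on Day 3 after wounding. The young group had 3 samples from mice aged 12 weeks and the aged group had 3 samples from mice aged 24 months. They are named here by the set letter in their titles, A, B or C, which each young sample shares with 1 aged sample. The labels do not say whether samples of the same letter share a day or batch. The labels name no transgene or drug, and age was the labelled difference between the groups. Live CD45+ CD11b+ CD64+ F4/80+ cells were sorted after enzymatic digestion of the wound, with no step to remove Ly6G+ neutrophils, so each value is an average over all sorted cells. The sources used here do not say how many mice went into a sample, and p-values therefore measure the spread between these samples, which may in part be technical. The total was between 15270103 and 17927483 expected counts a sample, and 1 count was worth 0.0553 to 0.0701 CPM, the unit used here for counts scaled to library size. The 11 macrophage markers examined, among them Cd68, Csf1r and Fcgr1, summed to between 36408 and 55383 CPM in every sample, most of it from Lyz2 and Cd14. Of these markers 5 were called between ages (adjusted p between 0.00735 and 0.0292). Itgam (log2 fold change 0.99) and Cd14 (1.10) were higher in aged samples, and Adgre1, which encodes F4/80 (-0.69), C1qa (-1.09) and C1qb (-1.04) were lower. That is 18.2% of the markers higher and 27.3% lower, beside 9.73% and 7.97% of all genes tested. By sample, 5 markers (45.5%), among them Cd68 and Lyz2, lay lower in all aged than in all young samples, and 3 (27.3%) lay higher. These shares were 19.0% and 19.2% over all genes tested.

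Glycolysis turns glucose into pyruvate in the cytosol. Glucose enters through transporters of the Slc2a family, is trapped by hexokinase, committed to breakdown by phosphofructokinase, and yields pyruvate through pyruvate kinase. Lactate dehydrogenase then converts pyruvate to lactate, which leaves the cell through the monocarboxylate transporters, whereas pyruvate dehydrogenase kinases restrain the entry of pyruvate into mitochondria. Inflammatory macrophages are known to rely on this route. HIF is a pair of an alpha subunit (Hif1a or Epas1) and Arnt. The EGLN prolyl hydroxylases use oxygen to mark the alpha subunit for the Vhl ubiquitin ligase, so that the protein accumulates when oxygen is scarce, and many glycolytic genes are textbook HIF targets. Transcript levels such as those measured here do not report on the stability of the HIF protein.

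Between aged and young macrophages, 8 of the 40 genes tested passed at an adjusted p-value under 0.05, 5 higher and 3 lower in aged samples, by the quasi-likelihood test of edgeR. P-values were adjusted after Benjamini and Hochberg over the 11878 genes that could be tested. Of the 25 glycolytic genes, 2 were higher (Slc16a3 and Slc2a6) and 2 were lower (Ldhb and Pfkm), which is 8% each way. Of the 15 tested HIF and hypoxia genes, 3 were higher (Hif1a, Ndrg1 and Mxi1) and 1 was lower (P4ha2). Across all genes tested, 9.73% were called higher and 7.97% lower, so the share of glycolytic genes called was close to that of genes in general. With the additional 2-fold threshold that the study's methods use, 4 glycolytic genes and Hif1a were left, beside 4.59% of all genes higher and 4.20% lower. The median log2 fold change was 0.25 for the glycolytic genes and 0.19 for the HIF and hypoxia genes, beside -0.02 for all genes tested. A positive log2 fold change was found in 20 of 25 and in 11 of 15 genes, respectively. These medians rested in part on single samples. Without aged A they were 0.14 and 0.07, with 15 and 9 positive genes, and without aged B both were 0.38. For the HIF and hypoxia genes the median was also 0.11 without aged C and 0.13 without young A, and limma-voom gave 0.15 for the glycolytic and 0.11 for the HIF and hypoxia genes. In bulk samples of this kind, a change in the share of cells that express a gene and a change in the level within each cell cannot be told apart.

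**Figure D1:**
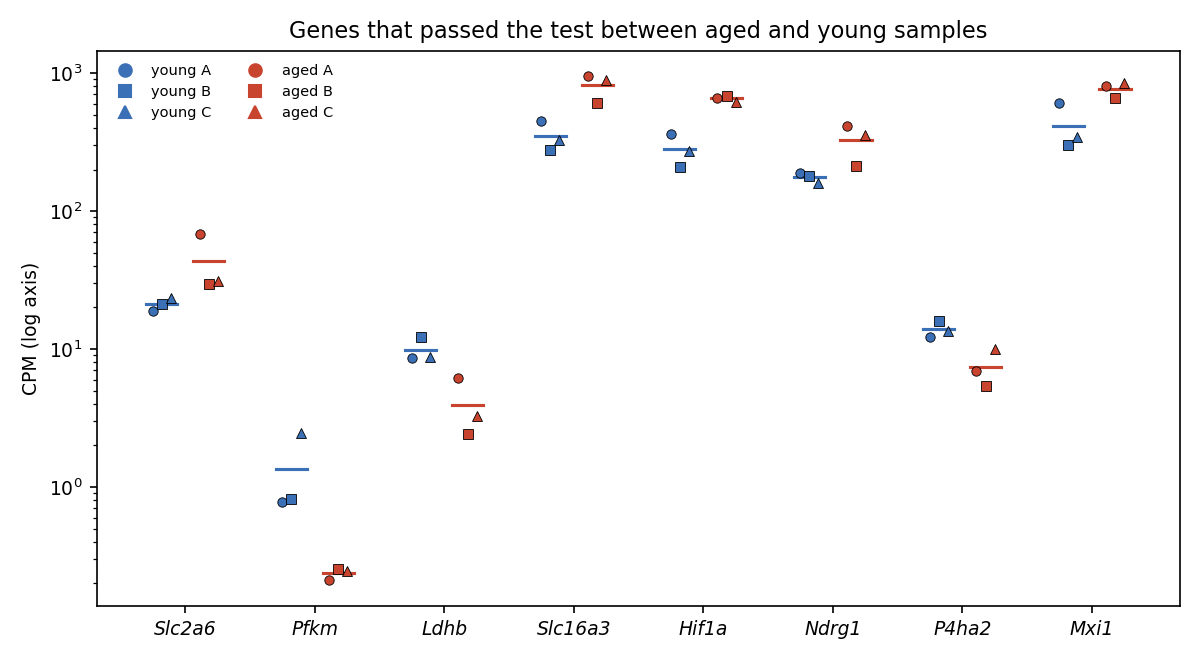
CPM on a log axis for the 8 genes that passed the test, in 3 young (blue) and 3 aged (red) samples. Points are samples, with the shape giving the letter A, B or C, and horizontal lines are group means. The aged samples lie wholly above or wholly below the young samples for each of the 8 genes.

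The levels of the 41 genes were compared after division by transcript length, as CPM per kilobase. The highest levels in young samples were those of Ldha (1603 CPM per kilobase ± 235 SD, n = 3), Aldoa (1431 ± 300), Pkm (1332 ± 208) and Eno1 (1021 ± 109), the enzymes of the last steps to lactate and of the fructose bisphosphate split. The first 3 lay within 1 SD of their neighbours, and Eno1, counted without its copy Eno1b, did not. In aged samples Pkm came first at 1864 CPM per kilobase ± 370, ahead of Ldha at 1519 ± 434, again within the spread between samples. The lowest levels were those of Pfkm (0.468 in young and 0.0824 in aged) and Epas1 (0.0216 and 0.0362). The regulators of oxygen sensing stood between these extremes, for instance Egln3 at 21.6 ± 3.48 and Vhl at 12.8 ± 2.26 CPM per kilobase in young samples.

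**Figure D2:**
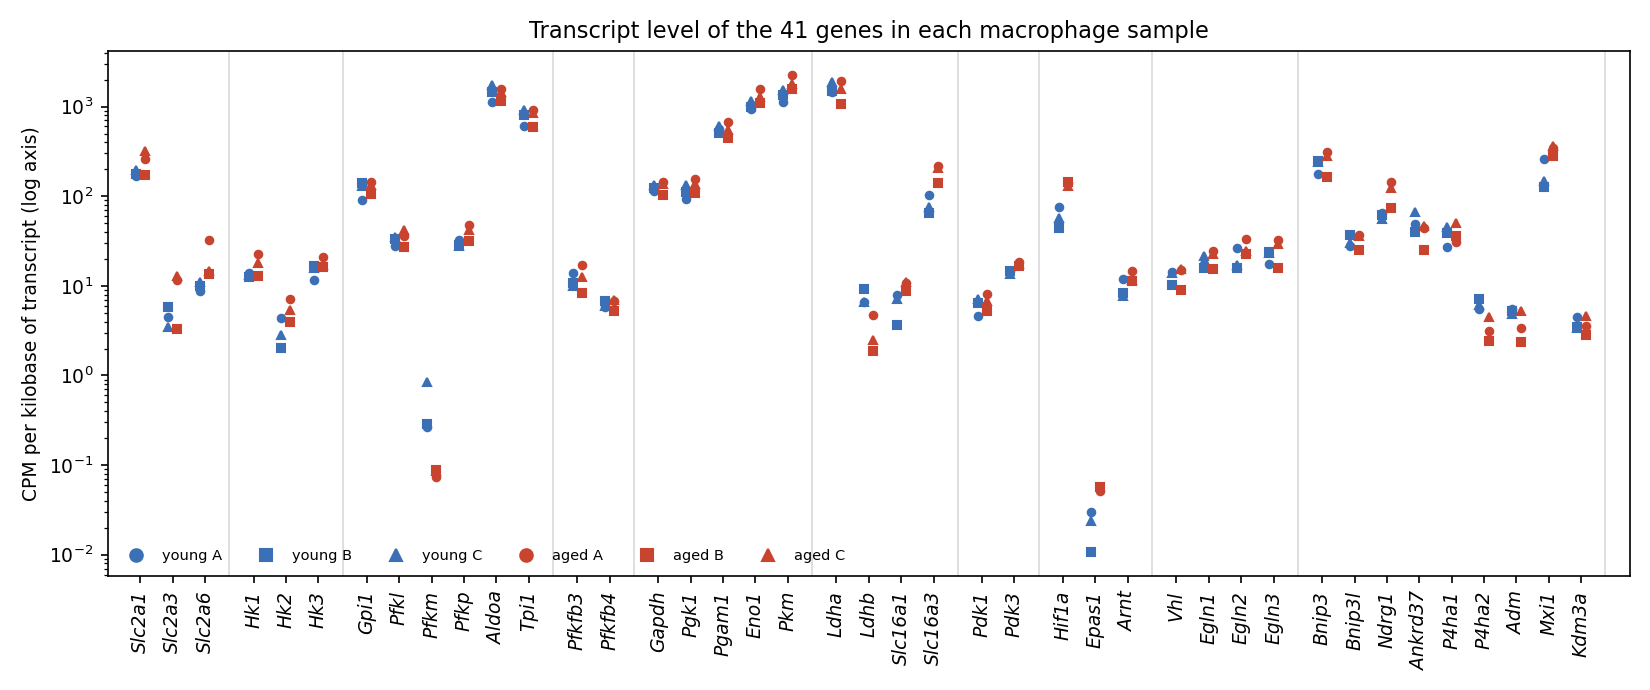
CPM per kilobase of transcript on a log axis for the 41 genes, ordered by role from glucose transporters to hypoxia response genes, in each young (blue) and aged (red) sample. Ldha, Aldoa, Pkm and Eno1 are the most abundant, and Pfkm and Epas1 lie far below all others. The aged C value of Epas1 is 0 and is not drawn.

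Some of these enzymes have near-identical copies with rows of their own in the count table, between which the quantification divides reads. The copy Pgk1-rs7 held 62.6% to 63.8% of the counts of Pgk1 and the copy together in the 6 samples, Pgam1-ps1 and Pgam1-ps2 held 21.1% to 23.0% for Pgam1, and Eno1b held 14.9% to 16.3% for Eno1. These shares barely differed between samples, but the levels of Pgk1, Pgam1 and Eno1 are uncertain for this reason. For Ldha, Aldoa and Gapdh, the copies with rows in the table held under 1% in every sample. Copies with no row were not examined, so the level of Gapdh, which has many processed pseudogenes, is uncertain too.

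Glucose uptake was the first step examined. Slc2a6, which encodes GLUT6, a transporter found mostly on intracellular membranes, was higher in aged macrophages. Its levels were 18.9, 21.4 and 23.6 CPM in young A, B and C, and 68.7, 29.4 and 31.3 CPM in aged A, B and C. The groups did not overlap, and aged A stood above the other aged samples. The log2 fold change was 1.02 ± 0.30 (SE) with an adjusted p of 0.0432. The call was lost when any single sample other than aged B was left out, with adjusted p-values between 0.0596 and 0.120. Without aged A the log2 fold change was 0.51, and limma-voom with sample quality weights gave an adjusted p of 0.0572. Slc2a1 (GLUT1), the main transporter of activated macrophages, had 549, 570 and 637 CPM in young samples and 843, 557 and 1030 CPM in aged samples. Slc2a3 (GLUT3), a high-affinity transporter, had 17.8, 22.9 and 13.7 CPM in young samples and 45.5, 13.1 and 51.3 CPM in aged samples. For both genes aged A and aged C lay above every young sample, whereas aged B fell among or below them. Neither passed, at a log2 fold change of 0.47 ± 0.22 for Slc2a1 (adjusted p = 0.167) and 1.01 ± 0.41 for Slc2a3 (adjusted p = 0.109). DESeq2's Wald test called Slc2a3 (adjusted p = 0.0432) but not Slc2a1. A test that misses the threshold does not show that levels were alike.

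The hexokinases, which phosphorylate glucose and so keep it in the cell, did not pass by edgeR, where 1 of 3 had an unadjusted p under 0.05. At that threshold 2144 of all 11878 genes tested were higher in aged samples. Hk2, the isozyme that HIF is known to induce, ranged from 11.1 to 24.3 CPM in young and from 21.8 to 39.6 CPM in aged samples (log2 fold change 0.83 ± 0.30, adjusted p = 0.0777). Only young A reached the aged range. Without young A the adjusted p was 0.0151, but leaving out the highest young sample had to raise the difference. Without young B, young C, aged A or aged C the adjusted p was between 0.159 and 0.228. Hk2 was also called by DESeq2 (adjusted p = 0.0369) and by limma-voom (adjusted p = 0.0206). Hk1, the housekeeping form, ranged from 48.3 to 53.2 CPM in young and from 50.1 to 88.2 CPM in aged samples (0.45 ± 0.20, adjusted p = 0.147). Hk3, the myeloid form, ranged from 37.5 to 53.2 and from 52.7 to 68.4 CPM (0.32 ± 0.19, adjusted p = 0.257).

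In upper glycolysis, Pfkm was the 1 gene of 6 that passed. It encodes the muscle-type phosphofructokinase and was nearly absent from these macrophages. Its counts were 14, 14 and 37 in young samples and 3, 4 and 4 in aged samples, or 0.774, 0.821 and 2.44 CPM against 0.210, 0.255 and 0.247 CPM. Every aged sample was below every young sample, and aged levels lay near the 3 counts taken here as the floor. The log2 fold change was -2.45 ± 0.65 (adjusted p = 0.0306). The ratio of the summed young to the summed aged counts was 5.43 after scaling, with an exact 95% interval of 2.84 to 11.4 that covers counting error only. The call was lost when any single sample other than young A was left out, with adjusted p-values between 0.0542 and 0.166. Young C had the most counts, and without it the log2 fold change was -1.71. Pfkm overlaps Senp1 on the opposite strand, which had 932 counts in all against 76 for Pfkm, and with a library kit that does not mark strand, reads from the overlap cannot be assigned by strand. Pfkl, the liver form, and Pfkp, the platelet form, carried nearly all phosphofructokinase counts. Pfkp ranged from 115 to 136 CPM in young and from 130 to 196 CPM in aged samples (log2 fold change 0.44 ± 0.19, adjusted p = 0.121, and 0.0414 by limma-voom), and Pfkl had a log2 fold change of 0.12 ± 0.20. The isomerase Gpi1, aldolase Aldoa and triosephosphate isomerase Tpi1 had log2 fold changes of 0.08 ± 0.21, -0.03 ± 0.21 and 0.01 ± 0.23, each smaller than its SE.

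The PFKFB enzymes set the level of a fructose bisphosphate that activates phosphofructokinase. Pfkfb3, the inducible form, ranged from 45.9 to 63.7 CPM in young and from 38.2 to 79.8 CPM in aged samples (log2 fold change 0.14 ± 0.25). Pfkfb4 ranged from 20.4 to 23.4 and from 18.4 to 24.0 CPM (0.04 ± 0.18). Both overlapped between ages.

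None of the 5 enzymes of lower glycolysis passed by edgeR, DESeq2 or limma-voom. By edgeR 1 was higher at an unadjusted p under 0.05, as were 2144 of all 11878 genes tested. Pkm, pyruvate kinase of the M type, had 2705, 3301 and 3712 CPM in young A, B and C and 5529, 3779 and 4294 CPM in aged A, B and C. All aged samples lay above all young samples, by a narrow margin between aged B and young C, and the log2 fold change was 0.49 ± 0.21 (adjusted p = 0.136). Eno1, enolase, showed the next largest difference, at 0.37 ± 0.19 (adjusted p = 0.205), followed by the phosphoglycerate kinase Pgk1 at 0.25 ± 0.20. Gapdh (0.06 ± 0.18) and the mutase Pgam1 (-0.02 ± 0.19) hardly differed between group means.

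The lactate branch held changes in both directions. Slc16a3 encodes MCT4, the low-affinity carrier that exports lactate from glycolytic cells. It had 449, 279 and 325 CPM in young A, B and C and 953, 611 and 894 CPM in aged A, B and C. Every aged sample exceeded every young sample, and the means were 351 ± 88.1 and 819 ± 183 CPM (SD, n = 3). The log2 fold change of 1.22 ± 0.24 had an adjusted p of 0.0114, the lowest among the glycolytic genes. The call held under 11 of 12 alternative analyses and was lost without young C (adjusted p = 0.0706). Slc16a3 overlaps Csnk1d on the opposite strand, which had 11111 counts against 55473. Slc16a1 encodes MCT1, a carrier that moves lactate either way. It had 35.1, 16.4 and 31.4 CPM in young samples and 48.1, 38.7 and 48.4 CPM in aged samples, also without overlap, but the log2 fold change of 0.71 ± 0.26 did not pass (adjusted p = 0.0826). It was called by DESeq2 (adjusted p = 0.0467), by limma-voom (adjusted p = 0.0319) and without young A, the highest young sample (adjusted p = 0.0335). Without any other single sample it was not called, with adjusted p-values between 0.0809 and 0.203. Without young B the log2 fold change was 0.45.

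Ldhb, the heart-type lactate dehydrogenase subunit that favours the turnover of lactate to pyruvate, was lower in aged macrophages. It had 8.63, 12.1 and 8.72 CPM in young samples and 6.16, 2.42 and 3.27 CPM in aged samples, a log2 fold change of -1.32 ± 0.34 (adjusted p = 0.0287). The call was lost without young B, young C, aged B or aged C, with adjusted p-values between 0.0641 and 0.105. Ldha, the muscle-type subunit that favours lactate formation, ranged from 2552 to 3307 CPM in young and from 1888 to 3416 CPM in aged samples, with a log2 fold change of -0.08 ± 0.24. Per kilobase, Ldhb made up 0.477% ± 0.134 of the lactate dehydrogenase transcripts in young and 0.193% ± 0.0445 in aged samples (SD, n = 3).

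Of the pyruvate dehydrogenase kinases, Pdk3 had 31.1, 30.7 and 29.0 CPM in young and 39.4, 35.2 and 37.4 CPM in aged samples. The groups did not overlap, but the difference was small (0.30 ± 0.15, adjusted p = 0.188). Pdk1, a known HIF target, had a log2 fold change of 0.16 ± 0.22. Counted over the whole pathway, 5 glycolytic genes lay higher in all aged than in all young samples (Slc2a6, Pkm, Slc16a1, Slc16a3 and Pdk3) and 2 lower (Ldhb and Pfkm). That is 20% and 8% of 25, against 19.2% and 19.0% of all genes tested.

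Hif1a, the oxygen-regulated alpha subunit, was higher in aged macrophages, with a log2 fold change as large as that of Slc16a3. Its levels were 362, 208 and 271 CPM in young A, B and C and 661, 684 and 618 CPM in aged A, B and C. The lowest aged sample lay well above the highest young sample, and the aged values were close together. The means were 280 ± 77.1 and 654 ± 33.4 CPM (SD, n = 3), a log2 fold change of 1.22 ± 0.21 (adjusted p = 0.0081). The call held under 11 of 12 alternative analyses and missed the threshold without young C (adjusted p = 0.0549). Epas1, the other alpha subunit (HIF-2alpha), had 3, 1 and 2 counts in young and 4, 5 and 0 counts in aged samples, so Hif1a made up nearly all alpha subunit transcripts per kilobase (means of 99.96% and 99.97% in young and aged samples). Arnt, the constant partner, ranged from 20.9 to 31.9 CPM in young and from 30.3 to 39.7 CPM in aged samples (0.43 ± 0.21, adjusted p = 0.170). Of 12 alternatives for Arnt, 1 passed, the fit without young A, the highest young sample (adjusted p = 0.0425).

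None of the 4 genes of oxygen sensing passed by edgeR, DESeq2 or limma-voom, none had an unadjusted p under 0.05 by edgeR, and all overlapped between ages. Vhl, the ligase subunit that recognises hydroxylated HIF, ranged from 28.5 to 39.9 CPM in young and from 24.9 to 43.2 CPM in aged samples (log2 fold change 0.03 ± 0.23). Egln1 (PHD2), the main oxygen sensor, ranged from 56.1 to 77.8 and from 55.7 to 87.3 CPM (0.20 ± 0.21). Egln2 (PHD1) had a log2 fold change of 0.45 ± 0.23 (adjusted p = 0.189) and Egln3 (PHD3), itself induced by HIF, one of 0.25 ± 0.25. Of 12 alternatives for Egln2, 1 passed, the fit without young A, the highest young sample (adjusted p = 0.0341). Per kilobase the EGLN transcripts were present in similar amounts, with mean shares in young samples of 30.5% for Egln1, 33.0% for Egln2 and 36.5% for Egln3.

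Of 9 hypoxia response genes, 2 were higher and 1 was lower (22.2% and 11.1%, beside 9.73% and 7.97% of all genes tested). Ndrg1, a stress-induced cytoplasmic protein, had 189, 180 and 159 CPM in young A, B and C and 415, 212 and 356 CPM in aged A, B and C. The groups did not overlap, although aged B lay near the young samples. The log2 fold change was 0.90 ± 0.24 (adjusted p = 0.0296). Mxi1, a MAX partner that antagonises MYC, had 603, 299 and 345 CPM in young samples and 802, 657 and 853 CPM in aged samples. Young A was the highest young sample and came near aged B, and the log2 fold change was 0.89 ± 0.26 (adjusted p = 0.0402). Both calls were lost without young B, young C, aged A or aged C, with adjusted p-values between 0.0752 and 0.161.

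P4ha2, an alpha subunit of the prolyl hydroxylase that modifies collagen, was lower in aged macrophages, against the direction of Ndrg1 and Mxi1. It had 12.3, 16.0 and 13.6 CPM in young samples and 6.94, 5.35 and 9.94 CPM in aged samples, a log2 fold change of -0.91 ± 0.26 (adjusted p = 0.0371). The call was lost without young B, young C, aged A or aged B, with adjusted p-values between 0.0805 and 0.121. Its paralogue P4ha1 had a log2 fold change of 0.09 ± 0.24, and the share of P4ha2 among both transcripts per kilobase was 14.9% ± 2.67 in young and 7.80% ± 1.44 in aged samples (SD, n = 3), without overlap.

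The other 6 hypoxia response genes did not pass and overlapped between ages. The mitophagy receptors Bnip3 (0.19 ± 0.25) and Bnip3l (0.06 ± 0.20) and the histone demethylase Kdm3a (-0.05 ± 0.22) had small log2 fold changes. Adm, the precursor of the vasodilator adrenomedullin, had -0.51 ± 0.30 (adjusted p = 0.264) and Ankrd37, an ankyrin repeat protein, had -0.44 ± 0.26 (adjusted p = 0.262). Ankrd37 overlaps Ufsp2 on the opposite strand, with 4624 counts against 4045, so its level is uncertain. For the whole set, the 3 genes called higher and the 1 called lower were the same genes whose groups did not overlap. That is 20% and 6.67% of 15, against 19.2% and 19.0% of all genes tested whose groups did not overlap.

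To show the sequence upstream of the genes that passed, promoter windows of RefSeq (build GRCm38.p6) were searched for the core of the HIF binding element. The letters searched were ACGTG and GCGTG on both strands, in the 250 bases before each annotated start. In CACGTG the search finds a match on each strand, and these overlap. Of the 41 genes, 37 had at least 1 window, 54 in all. A match was found in 43 of 54 windows (79.6%), and 34 of 37 genes had a window with a match. Of all 32851 windows of the mouse table, 38.6% held a match. The genes were chosen partly as known HIF targets, so this share is a description of the group, and a match is not evidence of binding in these cells. The genes with no match were Gpi1, Tpi1 and Vhl, none of which passed between ages. The windows of the 5 genes that passed and had a single window are shown 5′ to 3′, with the matches in capitals. They span chr11:120948817-120949066, plus strand for Slc16a3, chr2:27027999-27028248, minus strand for Slc2a6, chr6:142507958-142508207, minus strand for Ldhb, chr12:73907617-73907866, plus strand for Hif1a and chr11:54100674-54100923, plus strand for P4ha2. The windows of Slc16a3, Hif1a and P4ha2 lie within the gene's span in the count table, downstream of a first annotated exon, and the last 14 bases of the Slc16a3 window are exonic in another transcript in GENCODE M21.
Slc16a3: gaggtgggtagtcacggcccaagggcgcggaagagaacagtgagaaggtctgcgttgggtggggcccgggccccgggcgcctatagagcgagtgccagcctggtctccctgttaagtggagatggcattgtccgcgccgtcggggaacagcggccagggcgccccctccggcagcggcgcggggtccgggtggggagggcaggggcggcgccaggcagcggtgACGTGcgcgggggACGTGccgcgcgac
Slc2a6: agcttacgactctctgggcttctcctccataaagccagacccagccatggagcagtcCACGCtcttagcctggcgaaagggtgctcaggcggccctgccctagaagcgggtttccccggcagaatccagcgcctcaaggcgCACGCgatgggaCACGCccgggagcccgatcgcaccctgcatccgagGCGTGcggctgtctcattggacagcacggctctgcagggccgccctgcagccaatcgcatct
Ldhb: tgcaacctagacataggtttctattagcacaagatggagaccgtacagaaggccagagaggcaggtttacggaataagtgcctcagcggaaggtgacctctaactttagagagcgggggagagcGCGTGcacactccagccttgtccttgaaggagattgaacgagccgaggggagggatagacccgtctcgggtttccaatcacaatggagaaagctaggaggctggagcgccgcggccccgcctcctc
Hif1a: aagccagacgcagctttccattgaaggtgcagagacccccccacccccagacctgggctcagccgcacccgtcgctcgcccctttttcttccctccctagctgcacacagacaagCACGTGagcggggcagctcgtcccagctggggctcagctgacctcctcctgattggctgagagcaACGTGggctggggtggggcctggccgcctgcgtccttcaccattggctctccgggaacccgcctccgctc
P4ha2: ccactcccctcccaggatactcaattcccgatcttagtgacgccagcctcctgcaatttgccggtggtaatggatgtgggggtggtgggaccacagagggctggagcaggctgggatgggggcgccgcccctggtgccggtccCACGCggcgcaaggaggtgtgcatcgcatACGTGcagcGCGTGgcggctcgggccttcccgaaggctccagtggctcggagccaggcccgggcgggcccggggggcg

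Matches stood upstream of genes that were higher and of genes that were lower in aged macrophages. Slc16a3 had matches 27 and 14 bases before its start, the closest of the 5. Hif1a had a CACGTG and a single ACGTG, Slc2a6 had 4 matches, P4ha2 had 3 and Ldhb had 1. Among the other genes that passed, 3 of the 4 Pfkm windows and 2 of the 3 Mxi1 windows held a match, and Ndrg1 had no window in the table. CACGTG was found in 6.02% of all windows and in 6 of the 54 windows of these genes (11.1%).

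Within the aged group, the genes did not vary independently. Aged B was the lowest aged sample for 24 of 25 glycolytic genes (96%) and for 13 of 15 HIF and hypoxia genes (86.7%), beside 34.3% of all genes tested. The median difference of aged B from the mean of aged A and aged C was -0.49 on the log2 scale for the glycolytic genes and -0.60 for the HIF and hypoxia genes, and 0.02 for all genes tested. It was widest for Slc2a3 (-1.87), Egln3 (-0.96) and Bnip3 (-0.87). Hif1a went the other way, since aged B was the highest aged sample for this gene (0.10 above the mean of the other 2 aged samples), and Pfkm and P4ha1 were the other exceptions. Aged A was the highest aged sample for 19 of 25 glycolytic genes (76%), beside 36.8% of all genes tested. Among young samples the order was less one-sided but also departed from that of all genes tested. Young A was lowest for 16 of 25 glycolytic genes (64%, beside 35.9% of all genes) and young C highest for 13 (52%, beside 28.9%). These genes share pathways and libraries, so the counts describe 3 samples and are not independent observations.

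**Figure D3:**
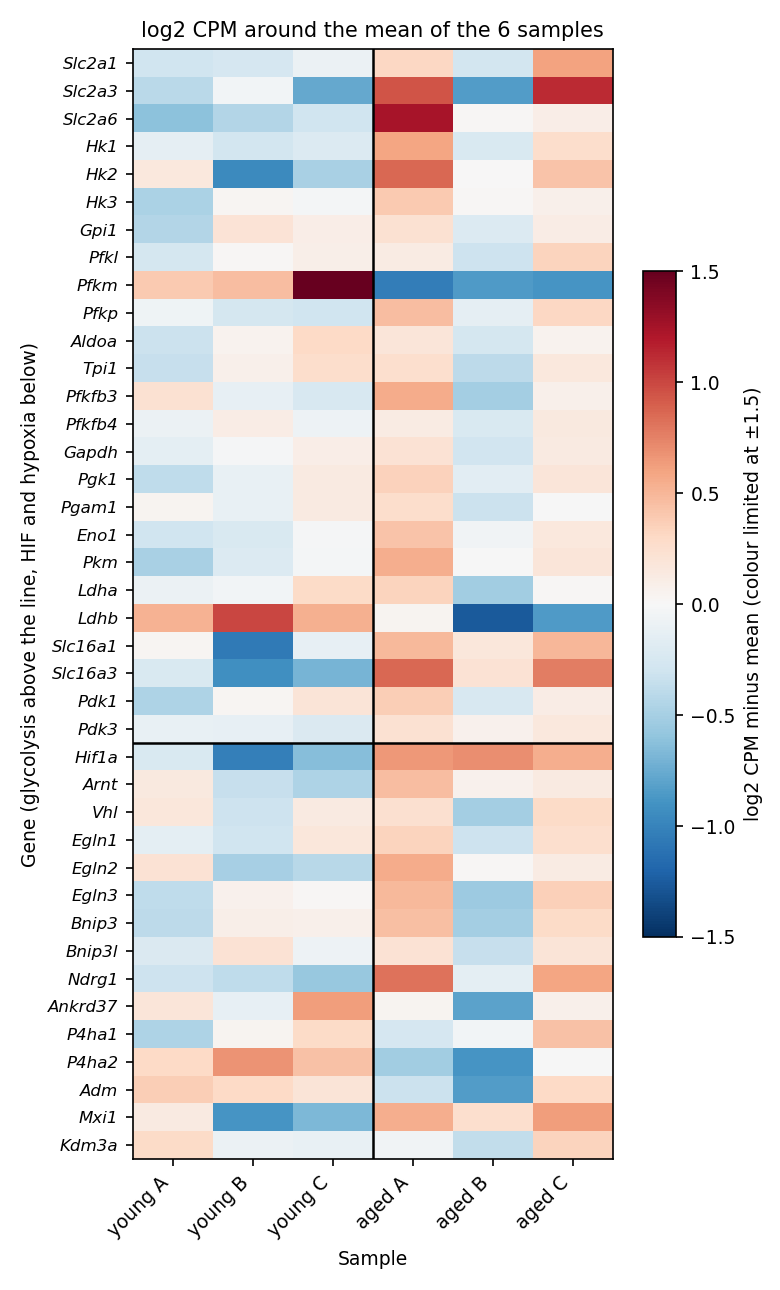
log2 CPM of the 40 genes tested, each minus its mean over the 6 samples, for glycolytic genes above the horizontal line and HIF and hypoxia genes below it. Red is above and blue below the mean. Aged B is the lowest aged column for all but 3 genes (Pfkm, Hif1a and P4ha1), whereas aged A and aged C are mostly red.

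The comparison between ages was repeated without each sample in turn. Without aged B, 2 aged samples were left and were assumed to vary like the young. Since aged B was the lowest aged sample for most of these genes, leaving it out had to raise their log2 fold changes, so the higher values are no independent support. There were 6 glycolytic genes called higher in place of 2, namely Slc2a1, Slc2a3, Slc2a6, Hk1, Hk2 and Slc16a3. In that fit 7.32% of all genes were called higher and 4.98% lower. The log2 fold change of Slc2a3 was 1.43 (adjusted p = 0.0062), that of Hk2 was 1.03 (adjusted p = 0.0484), that of Slc2a1 was 0.69 (adjusted p = 0.0422) and that of Hk1 was 0.65 (adjusted p = 0.0480). No glycolytic gene was called lower, since Ldhb and Pfkm had adjusted p-values of 0.0641 and 0.0662. The enzymes between phosphofructokinase and lactate dehydrogenase still did not pass, with Pkm at 0.61 (adjusted p = 0.0861) and Eno1 at 0.49 (adjusted p = 0.124). Hif1a, Ndrg1 and Mxi1 were called higher as before, and P4ha2 was no longer called (adjusted p = 0.0966). The median log2 fold change in that fit was 0.38 for both sets, the highest of the fits that each lacked 1 sample, which ranged from 0.14 for the glycolytic genes and from 0.07 for the HIF and hypoxia genes.

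**Figure D4:**
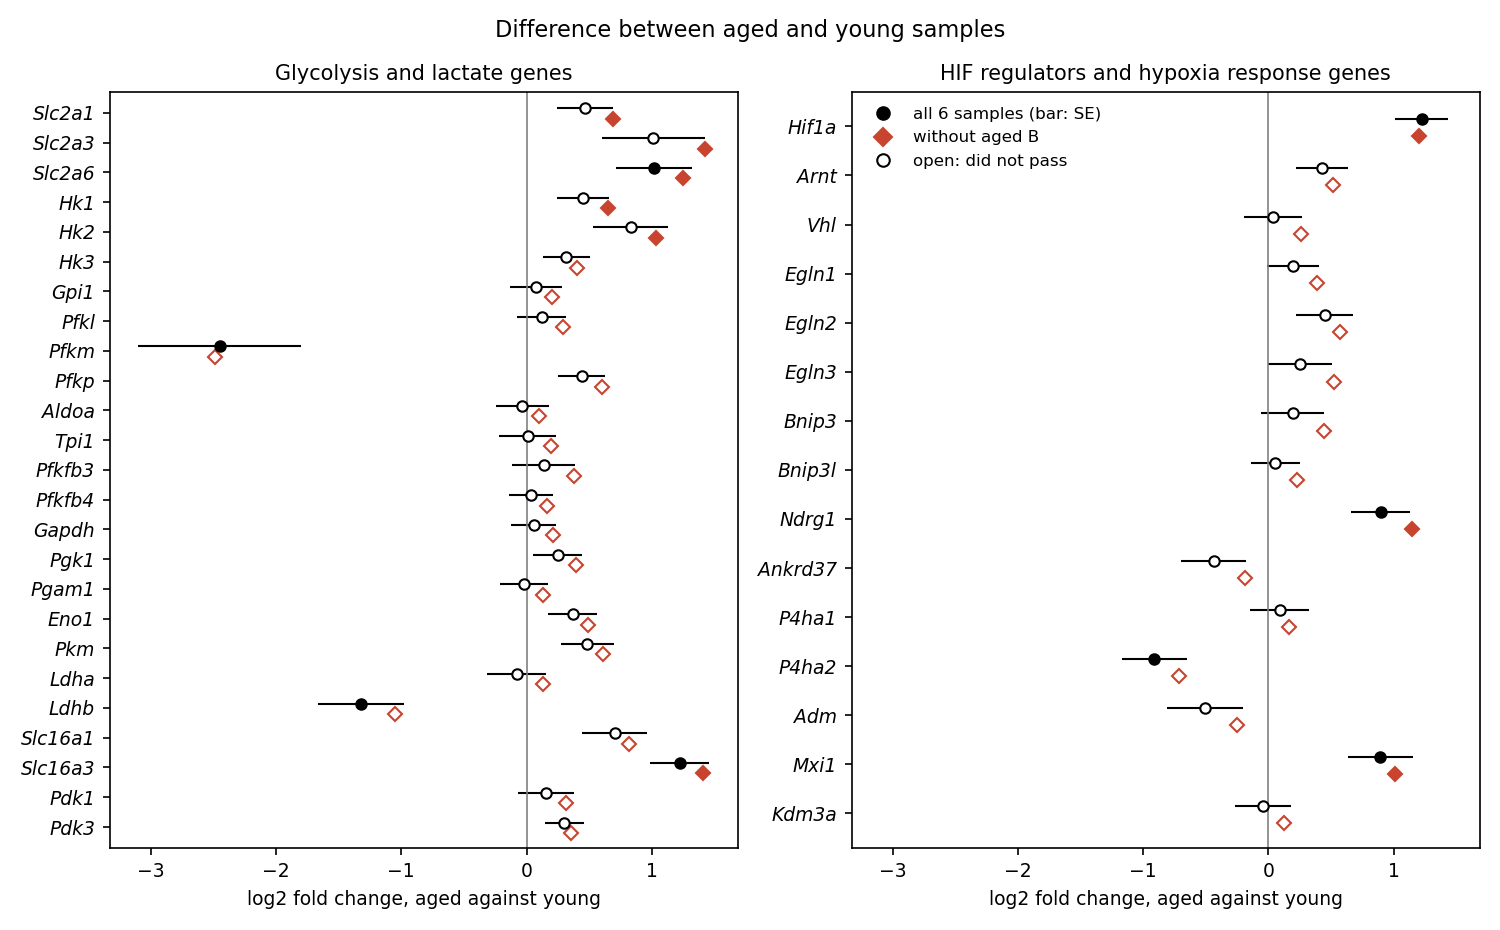
log2 fold change between aged and young samples for the 40 genes tested, from all 6 samples (circles, with bars of 1 SE) and without aged B (diamonds). Filled symbols passed at an adjusted p-value under 0.05. Without aged B the diamonds of the glucose transporters, Hk1 and Hk2 are filled, and those of Ldhb, Pfkm and P4ha2 are open.

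Aged B also differed in markers of other cell types. The 10 keratinocyte markers, all in the table, summed to 205 CPM in aged B, against 2.04 and 3.22 CPM in the other aged samples and 0.925 to 1.17 CPM in young samples. Krt1 and Dsp were at 0 in the young samples. The 7 fibroblast markers summed to 121 CPM in aged B, 12.4 and 36.9 CPM in the other aged samples and 25.2 to 41.5 CPM in young samples. Macrophage markers summed to 36408 CPM in aged B, the lowest of the 6 samples, most of it from Lyz2 and Cd14. Taken one by one, aged B was the lowest aged sample for 5 of the 11 macrophage markers and the highest for another 5 (Adgre1, Cd68, Mertk, C1qa and C1qb). Neutrophil markers, 14 of 16 in the table, summed to 756, 1282 and 1214 CPM in young A, B and C and to 1675, 953 and 1636 CPM in aged A, B and C, so that aged B was the lowest aged sample here too. Of 13 neutrophil markers tested, 4 (30.8%) were called higher in aged samples and none lower, beside 9.73% and 7.97% of all genes tested. Mmp9 was lower at an unadjusted p under 0.05 by edgeR (log2 fold change -0.54 ± 0.24). Ly6g itself had 6.14 to 10.9 CPM in young and 6.18 to 9.60 CPM in aged samples. Slc2a3, which neutrophils are known to express strongly, was likewise highest in aged A and aged C. Dendritic cell markers, 5 of 6 in the table, summed to 54.7, 21.8 and 16.1 CPM in young A, B and C and to 93.8, 30.3 and 39.6 CPM in aged A, B and C. Young A and aged A were the highest of their groups, as they were for Hk2 and Slc16a3. Over the 25 glycolytic genes, young A was the highest young sample for 7 and the lowest for 16. Aged A was the highest aged sample for 19 of these 25 genes. None of the 5 dendritic cell markers was called (1 was higher at an unadjusted p under 0.05 by edgeR). The 5 endothelial markers summed to 11.8 to 12.6 CPM in young and 25.9 to 31.1 CPM in aged samples, without overlap. This followed Pecam1, the only one of 3 tested that was called, while Cdh5 and Tek stayed under 1 CPM in every sample. T cell and muscle markers summed to at most 4.22 and 20.4 CPM. The part of these other cells in the glycolytic values was not tested.

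Markers of red blood cells moved with age. Of 5 erythroid markers tested, 4 (80%) were called lower in aged samples, beside 7.97% of all genes tested. The 5 markers summed to 153 to 490 CPM in young and 41.8 to 152 CPM in aged samples. Young B had the highest erythroid sum and the highest Ldhb level. Among aged samples the order was reversed, with the lowest erythroid sum (41.8 CPM) and the highest Ldhb level in aged A, and the highest erythroid sum (152 CPM) and the lowest Ldhb level in aged B. Pfkm was highest in young C. The part of red cell RNA in the lower levels of Ldhb and Pfkm in aged samples was not tested.

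Shares within each enzyme family were compared per kilobase, as a description with no test. Hexokinase was split between Hk3 (47.3% ± 7.37 in young and 44.2% ± 4.27 in aged samples, SD, n = 3) and Hk1 (42.7% ± 3.11 and 42.8% ± 3.28), with Hk2 at 10.0% ± 4.27 and 13.0% ± 1.08. Slc2a1 made up 92.5% ± 0.701 of the 3 glucose transporters in young and 89.5% ± 3.44 in aged samples. Pfkl and Pfkp held similar shares, 51.5% and 47.8% in young and 46.3% and 53.6% in aged samples. Slc16a3 made up 92.9% ± 1.61 and 94.8% ± 0.581 of the lactate carriers. Only Ldhb, Pfkm and P4ha2, and with them their partners Ldha and P4ha1, had shares that did not overlap between ages among these 8 families.

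**Figure D5:**
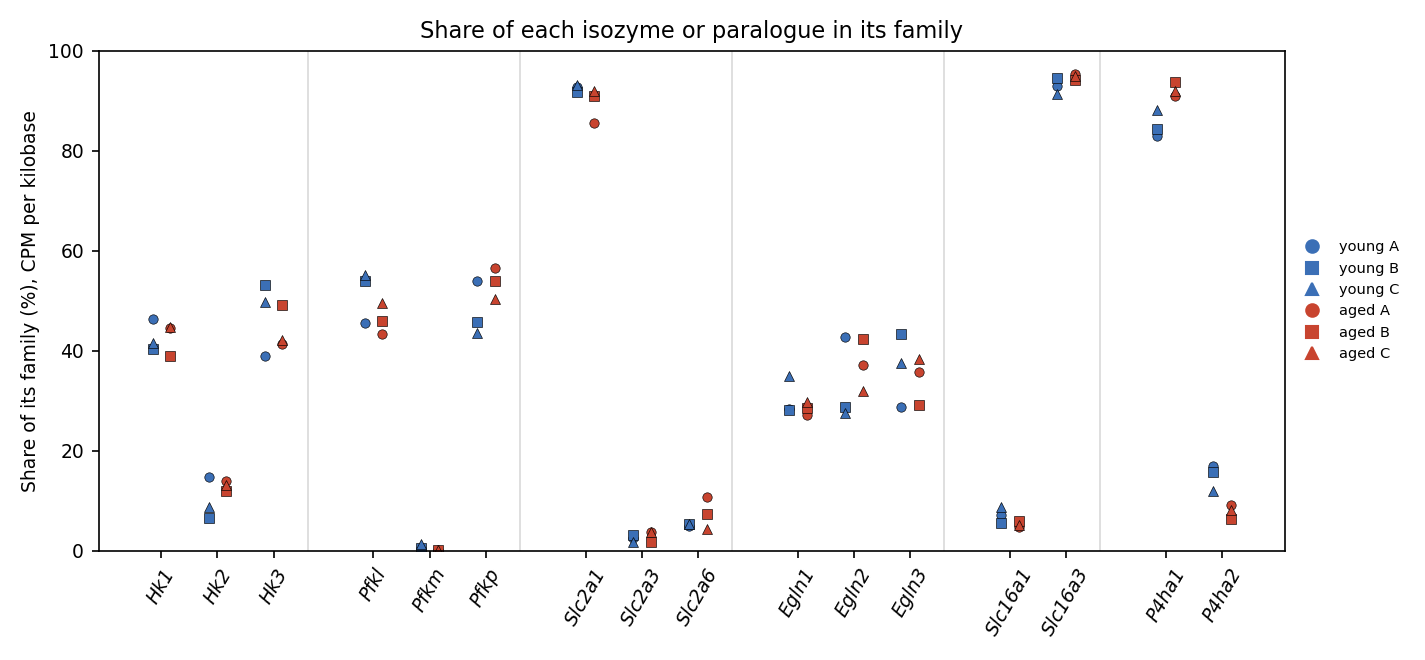
Share (%) of each isozyme or paralogue in its family, from CPM per kilobase, in each young (blue) and aged (red) sample, for 6 families. P4ha2 falls from 11.9% to 17.0% in young to 6.24% to 9.07% in aged samples, whereas the hexokinase, glucose transporter, EGLN and lactate carrier shares overlap.

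Other genes of the same pathways were read from the same fit. Of 20 further glycolysis genes, 14 were in the table and 11 were tested, of which none was higher and 2 were lower (7.97% of all genes tested were called lower). At an unadjusted p under 0.05, 5 were lower, as were 1957 of all 11878 genes tested. DESeq2 called the same 2 genes, and limma-voom called 5 lower (Slc2a8, Aldoc, Bpgm, Eno3 and Slc16a7), beside 14.4% of all genes called lower by limma-voom. Slc2a8, another glucose transporter, had the lowest log2 fold change (-1.12 ± 0.25, adjusted p = 0.0176) and the neuronal enolase Eno2 the highest (0.16 ± 0.59). Aldoc, an aldolase isozyme, was the other gene called lower (-0.89 ± 0.26, adjusted p = 0.0411). The median over these genes was -0.44, beside 0.25 for the 25 glycolytic genes described first, and 6 of 11 lay lower in all aged than in all young samples, beside 19.0% of all genes tested. Of 16 further HIF regulators, 14 were tested and 3 were higher (9.73% of all genes tested were called higher), namely the ubiquitin ligases Siah2 (1.08 ± 0.19, adjusted p = 0.0083) and Siah1a (0.90 ± 0.21, adjusted p = 0.0210), which target EGLN proteins, and the HIF coactivator Crebbp (0.71 ± 0.20, adjusted p = 0.0351). Rack1 was the lowest of this list (-0.45 ± 0.16, adjusted p = 0.0769). DESeq2 called the same 3 genes and none lower, and limma-voom called these 3 higher and Rack1 lower.

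Among 35 further HIF targets, 31 were tested, 4 were higher and 2 were lower, and the median log2 fold change was 0.25. The collagen cross-linking oxidase Lox had the highest log2 fold change but did not pass (1.35 ± 0.70, adjusted p = 0.200). Its level was 0.560, 5.60 and 2.72 CPM in aged A, B and C and 0.469 to 1.52 CPM in young samples, so this value leaned on aged B. The inducible nitric oxide synthase Nos2 was the highest of those called (1.33 ± 0.30, adjusted p = 0.0185). The endoplasmic reticulum oxidase Ero1l and the lipid droplet genes Hilpda and Plin2 were called at log2 fold changes between 0.84 and 0.90. Bhlhe41, a transcriptional repressor, was the lowest (-2.14 ± 0.56, adjusted p = 0.0287), at 0.997 to 1.65 CPM in young and 0.185 to 0.446 CPM in aged samples, and Cxcr4, the CXCL12 receptor, was also lower (-0.80 ± 0.22, adjusted p = 0.0315). In this list, 12.9% of the genes were called higher and 6.45% lower, beside 9.73% and 7.97% of all genes tested. DESeq2 called 6 of 32 higher and 2 lower, beside 12.4% and 9.16% of all genes, and limma-voom called 8 of 31 higher and 4 lower, beside 16.3% and 14.4%.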

How the data were processed

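Per the labels and the study's methods, RNA from sorted wound macrophages was amplified with a SMART-Seq v4 kit, which does not mark strand, and sequenced with paired reads. According to the submitters' processing notes, reads were aligned with STAR 2.7.3a and quantified in Partek (version not given in the sources used here) to mm10 transcripts. The deposited table holds the authors' expected counts per gene without normalization, of which 30.7% to 34.0% per sample differed from the nearest whole number by any amount. They were rounded here. A deposited table of the authors' own fold changes and p-values between ages, and their normalised table, were not used.

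The genes and lists were chosen with earlier results of these data known. Lowly counted genes were removed by edgeR's filterByExpr, which left 11878 genes, and library sizes were scaled by TMM. Aged and young samples (3 each) were compared with edgeR 4.0.16 (glmQLFit and glmQLFTest, R 4.3.3), and p-values were adjusted by the Benjamini-Hochberg method across the tested genes. A gene passed at an adjusted p-value under 0.05. The SE is the log2 fold change divided by the square root of F. CPM values rest on TMM-scaled library sizes. For values on the log2 scale a prior count of 2 was added. CPM per kilobase used the length of the principal protein-coding transcript in GENCODE M21. The labels list 6 samples. No pair of one group agreed within sampling noise (chi-square per degree of freedom 32.5 to 123), which does not tell separate animals from repeat libraries. Alternatives were DESeq2 1.42.0, limma-voom (limma 3.58.1), DESeq2 size factors, other count filters, a block for the set letter, and fits that each lacked 1 sample. The scripts were tested on simulated data.

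Every gene was named by role. Values in every sample were given for genes that passed or whose groups did not overlap, and for Slc2a1 and Slc2a3, which were chosen after their values were seen. Of other lists, the highest and the lowest tested gene and those past the 2-fold threshold were named. Aldoc, Siah1a, Crebbp, Ero1l, Hilpda, Plin2 and Cxcr4 were added after their values were seen. From the other gene lists and the marker lists, 2 genes are not reported here and were left out of their lists' counts, medians and sums.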

Additional observations from a re-analysis of the deposited data

How the results depend on the processing

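The numbers of genes called depended on the samples included. Leaving out each sample in turn gave 0 to 6 glycolytic genes higher (2 with all samples) and 0 to 2 lower (2), and 0 to 5 HIF and hypoxia genes higher (3) and 0 to 1 lower (1). Calls among all genes, 1156 higher and 947 lower with all samples, ranged from 151 and 67 without young C to 1574 and 1128 without young A. DESeq2 called 5 of 25 glycolytic genes higher, beside 12.4% of all genes, and limma-voom called 4, beside 16.3%. With at least 10 counts in every sample, 1 glycolytic gene was lower, since Pfkm was no longer tested. Under the 2-fold threshold, 1 HIF and hypoxia gene was higher and 0 were lower. DESeq2 size factors, and no filter on low counts, gave the same counts as the main analysis. No gene that passed changed direction under any alternative. With the set letter as a replicate block, 3 glycolytic genes were higher and 2 lower, and 3 HIF and hypoxia genes were higher and 1 lower, beside 10.1% of all genes higher and 7.68% lower: Hk2 (adjusted p = 0.0168) and Slc16a1 (adjusted p = 0.0343) were gained and Slc2a6 (adjusted p = 0.0640) was lost. Deviations of samples with the same letter correlated at 0.18 (A), -0.02 (B) and 0.11 (C), and those of samples with different letters at -0.22 to 0.14. With 3 samples per age, these values cannot tell whether the letters pair samples. The letter was used only as an alternative block. Pfkm, with 3 or 4 counts per aged sample, is limited by depth.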

Other observations

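Routes that branch from glycolysis showed no gene past the threshold by edgeR. For the entry of pyruvate into mitochondria, 10 genes were tested by edgeR, of which none was called. At an unadjusted p under 0.05, 3 were lower, as were 1957 of all 11878 genes tested. DESeq2 called Pdk2 lower and Pdk4 higher, and limma-voom called Pdk2 and Mpc2 lower. The median log2 fold change was -0.13. The lowest was Pdk2, a pyruvate dehydrogenase kinase (-1.14 ± 0.37, adjusted p = 0.0564), and the highest was the phosphatase Pdp2 (0.35 ± 0.41). Of the 10 genes, 4 lay lower in all aged than in all young samples, among them Pdk2 and Mpc2, and 1 lay higher. That is 40% and 10%, beside 19.0% and 19.2% of all genes tested. The pyruvate carrier subunit Mpc2, at 34.4 to 44.0 CPM in young and 24.6 to 30.4 CPM in aged samples (-0.44 ± 0.17, adjusted p = 0.0998), was chosen after its values were seen. Pdk4, another kinase of this family, was below the count filter, with 0 to 0.111 CPM in young and 0.280 to 1.85 CPM in aged samples.

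For the pentose phosphate pathway, which makes NADPH and ribose, none of 6 genes tested was called, and none had an unadjusted p under 0.05. DESeq2 called the kinase Shpk lower, which the filter removed here, and limma-voom called Pgls lower. The lactonase Pgls was the lowest (-0.34 ± 0.16) and the NADPH-forming dehydrogenase Pgd the highest (0.27 ± 0.18). For glycogen metabolism, none of 11 genes was called and 2 were lower at an unadjusted p under 0.05, as were 1957 of all 11878 genes tested. DESeq2 called none and limma-voom called Phkb lower. The phosphorylase kinase subunit Phkb was the lowest (-0.69 ± 0.28, adjusted p = 0.105) and glycogen synthase Gys1 the highest (0.49 ± 0.25, adjusted p = 0.195).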
